A study of Homo sapiens with 24 samples.

Results

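The genes described are the nuclear genes for subunits of the oxidative phosphorylation machinery, measured in N/TERT1 cells, a human keratinocyte line immortalized with telomerase. Members were the probes whose gene symbol names a subunit of complex I (NDUFA, NDUFB, NDUFC, NDUFS, NDUFV), complex II (SDH), complex III (UQCR and CYC1), complex IV (COX4 to COX8) or ATP synthase (ATP5), with assembly factors and pseudogenes left out. The rule took in 83 genes with 111 probes, and a gene was tested when the detection p of its probe was under 0.01 on 4 or more of the 24 arrays. This kept 69 genes, each represented by its brightest probe, among 12149 features tested in all. They were 29 of 36 complex I genes, 3 of 3 complex II genes, 9 of 9 complex III genes, 11 of 17 complex IV genes and 17 of 18 ATP synthase genes. UQCR11 passed through the undifferentiated arrays alone, apart from 1 putrescine array, so it is described by itself and all counts below are over the other 68. Of these, 67 were detected on all 24 arrays and ATP5MK on 23.

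The 6 groups held 4 arrays each of total RNA from this single line. Undifferentiated cells, labelled day 0, were kept in 0.3 mM calcium. The other 5 groups were cultured for 6 days in 1.2 mM calcium, which makes keratinocytes differentiate. One of these 5 groups had no compound (day 6). The others received, from day 3, 50 µM EGBG, 1 mM spermidine/spermine (SDSM), both EGBG and SDSM, or 1 mM putrescine (PUT). EGBG inhibits AMD1, the decarboxylase whose product is needed to turn putrescine into spermidine and spermine. The labels do not settle whether 1 mM applies to each polyamine or to their mixture. The series calls the samples biological replicates without naming separate cultures, so p-values measure the spread between these arrays, which may be partly technical.

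Oxidative phosphorylation makes most of the ATP of respiring cells. Complex I takes electrons from NADH and complex II takes them from succinate, coenzyme Q carries them to complex III, cytochrome c carries them to complex IV, and complex IV passes them to oxygen. The protons pumped on the way return through the membrane part of ATP synthase and turn its rotor. The subunits come from nuclear and mitochondrial genes, and the nuclear ones are imported into mitochondria. In epidermis, cells lose their mitochondria late in differentiation, when they cornify.

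The nuclear subunit genes are known for promoters that hold sites of NRF1, of ETS-family factors such as GABP, and of YY1. RefSeq promoters (GRCh38.p14, 250 bases before to 50 bases after the first listed start) were available for 58 of the 69 tested members, and each was searched on both strands for exact letters. The NRF1 letters CGCATGCG stood in 8 of the 58, or 13.8%, against 2.19% of 27305 promoters. The ETS letters CCGGAAG stood in 18, or 31%, against 10.7%. The YY1 letters AAGATGGCG stood in 7, or 12.1%, against 1.85%. At least 1 of these 3 was present in 27 of the 58 members (46.6%) and in 13.7% of all promoters. By complex, these were 10 of 26 complex I genes, 1 of 2 complex II genes, 4 of 6 complex III genes, 5 of 10 complex IV genes and 7 of 14 ATP synthase genes. The ETS letters end with AAG and the YY1 letters begin with it, so a single stretch can count for both. Such matches describe the sequence and were not tested as binding sites.

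Below are the 120 bases before the start of 4 members, shown because each was among the largest changes of its complex in a comparison described here and holds one of these motifs. Capitals mark the NRF1 letters in NDUFS7 and ATP5MC2, and the ETS letters, read on the opposite strand as CTTCCGG, in COX8A and COX6B1.
NDUFS7: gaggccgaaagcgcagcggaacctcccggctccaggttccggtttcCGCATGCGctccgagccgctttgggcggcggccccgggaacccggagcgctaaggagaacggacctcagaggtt
ATP5MC2: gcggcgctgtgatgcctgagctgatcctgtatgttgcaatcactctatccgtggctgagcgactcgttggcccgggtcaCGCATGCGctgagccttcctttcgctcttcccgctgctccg
COX8A: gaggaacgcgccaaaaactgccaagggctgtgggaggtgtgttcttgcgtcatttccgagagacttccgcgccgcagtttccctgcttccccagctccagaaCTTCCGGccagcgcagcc
COX6B1: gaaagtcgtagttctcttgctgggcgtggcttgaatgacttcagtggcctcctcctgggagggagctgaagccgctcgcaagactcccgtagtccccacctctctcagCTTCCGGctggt
The NDUFS7 window is chr19:1383787-1383906 on the plus strand, with its motif at bases -74 to -67 from the start. The ATP5MC2 window is chr12:53676084-53676203 on the minus strand, with its motif at -41 to -34. The COX8A window is chr11:63974500-63974619 on the plus strand (-18 to -12), and the COX6B1 window is chr19:35648203-35648322 on the plus strand (-12 to -6). The promoter of ATP5MC1, the member with the widest range between groups, held none of the 3 sets of letters.

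Each array detected 10348 to 13089 of 47304 probes. Of the markers fixed as a check of the label, KRT5, KRT14 and KRT10 were detected on all 24 arrays, while the melanocyte genes MLANA, TYR, TYRP1 and SOX10, the fibroblast genes COL1A2, COL3A1, PDGFRB, LUM and THY1 and the leukocyte genes PTPRC and CD3E were detected on none. Also detected were PMEL (20 arrays), COL1A1 (24), CD14 (21), HLA-DRA (24), CD207 (20) and CD68 (24). The arrays numbered 3 stood apart for some members. In 11 genes (NDUFA3, NDUFA11, NDUFA13, NDUFB7, UQCRB, UQCRH, COX5B, COX6B1, COX8A, ATP5F1E and ATP5MC2) the pooled within-group SD was above 0.4 on the log2 scale. Their mean deviation from the group mean was positive on replicate 3 of every group, from 0.27 in undifferentiated cells to 0.90 in SDSM. It was also high on replicate 1 of day 6 (0.40) and of EGBG (0.51), and as low as -0.72 on replicate 2 of day 6, as the plot of these deviations shows. The labels do not say what a replicate number marks. Counts are therefore also given without replicate 3 in every group, a choice made after seeing the data.

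**Figure D1:**
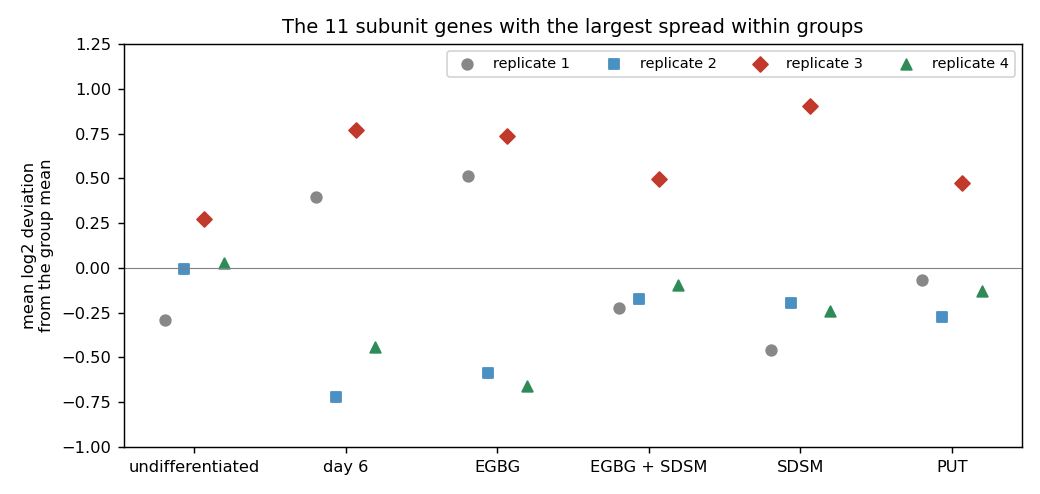
Mean deviation of 11 subunit genes from their group mean on each of the 24 arrays (log2, vertical axis), by group and with a symbol for each replicate number. Replicate 3 lies above 0 in all 6 groups, from 0.27 to 0.90.

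Across the groups, most subunit genes had their highest mean with EGBG and their lowest with SDSM. The highest group mean was that of EGBG for 45 of the 68 members, of undifferentiated cells for 17, of day 6 for 4, of PUT for 1 and of EGBG with SDSM for 1. The lowest was that of SDSM for 43, of undifferentiated cells for 12, of PUT for 7, of day 6 for 3, of EGBG with SDSM for 2 and of EGBG for 1. Such counts were not made over all features, so they do not set the members apart. After each gene was centred on its own mean, the median over members on an array was 0.45 ± 0.12 (SD, n = 4) with EGBG, 0.06 ± 0.09 in undifferentiated cells, 0.02 ± 0.14 at day 6, -0.11 ± 0.13 with PUT, -0.16 ± 0.13 with EGBG and SDSM and -0.32 ± 0.07 with SDSM. The EGBG arrays, from 0.31 to 0.60, all lay above every other array. The SDSM arrays, from -0.40 to -0.22, overlapped those of EGBG with SDSM and lay below all 4 of PUT. The median of the 3 complex II genes was 0.48 ± 0.15 in undifferentiated cells and 0.49 ± 0.08 with EGBG, a difference smaller than either SD.

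**Figure D2:**
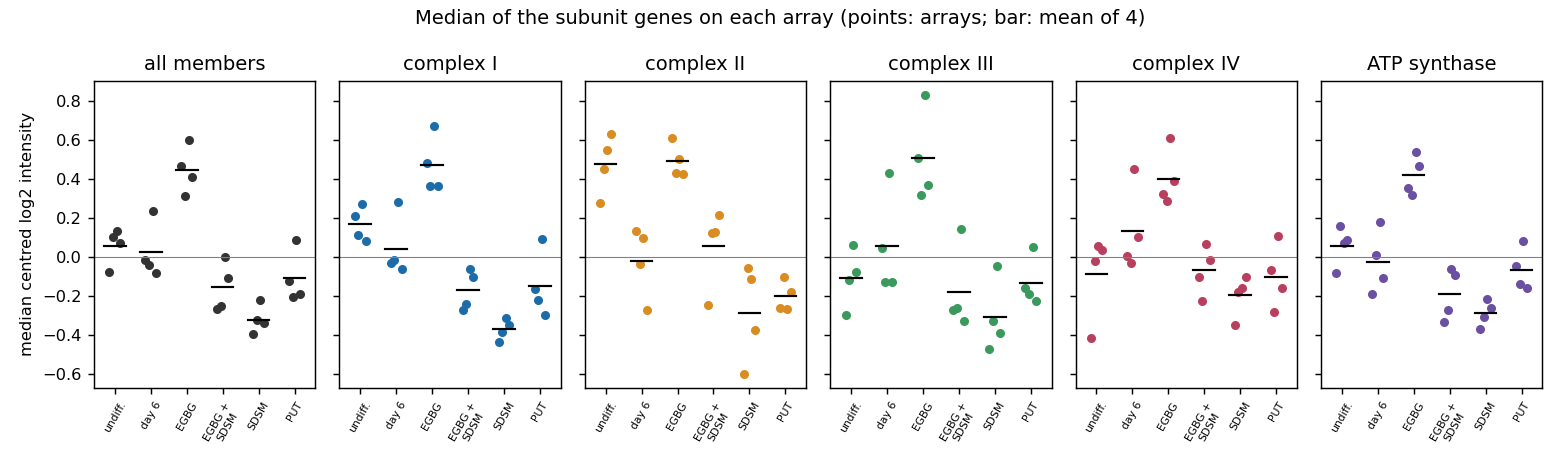
Median over subunit genes of the centred log2 intensity on each array (points; bars are means of 4), for all 68 members and by complex. The EGBG arrays sit between 0.31 and 0.60 for all members, above all others, and the SDSM arrays between -0.40 and -0.22.

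The comparison of day 6 with undifferentiated cells asked how these genes changed over 6 days in 1.2 mM calcium. No group spent those 6 days in 0.3 mM calcium, so time in culture and calcium cannot be told apart. Of the 68 members, 15 rose (22.1%) and 17 fell (25%), where 23.8% of all 12149 features rose and 33.8% fell. Their median log2 change was -0.05, beside -0.10 over all features. The members of a complex moved in both directions. Complex II was divided: by their brightest probes, SDHA, the flavin-carrying catalytic subunit, and SDHD, a membrane anchor, fell while SDHC, the other anchor, rose. SDHA was 10.19, 10.69, 10.77 and 10.64 (log2 intensity, replicates 1 to 4) in undifferentiated cells and 9.76, 9.87, 9.18 and 9.62 at day 6. SDHC was 8.54, 8.70, 9.16 and 8.72 in undifferentiated cells and 9.52, 9.60, 9.59 and 9.41 at day 6. Neither gene's groups overlapped, SDHA being lower and SDHC higher on every day 6 array. The changes were -0.96 ± 0.20 (SE, adjusted p = 0.000174) for SDHA, -0.63 ± 0.12 (SE, adjusted p = 6.86e-05) for SDHD and 0.75 ± 0.14 (SE, adjusted p = 7.3e-05) for SDHC. A second SDHA probe, detected on 21 arrays, was at 0.22 (adjusted p = 0.557), so the fall of SDHA rests on its brighter probe. The same holds for the rise of SDHC, whose second probe, detected on all 24 arrays, was at -0.05 (adjusted p = 0.777).

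In complex I, 5 members rose and 9 fell, and of the 5 core subunits tested, all of the peripheral arm that takes up electrons from NADH, 4 fell and none rose. NDUFB9, an accessory subunit of the membrane arm, had the largest fall of all members. It was 11.58, 11.62, 11.56 and 11.72 in undifferentiated cells and 9.62, 10.64, 11.03 and 10.38 at day 6. All 4 day 6 arrays lay below all undifferentiated arrays, with a change of -1.21 ± 0.19 (SE, adjusted p = 6.07e-06). NDUFA13, an accessory subunit also known as GRIM-19, had the largest rise. It was 9.05, 9.37, 9.35 and 9.22 before and 11.50, 10.12, 11.11 and 10.32 after, without overlap, a change of 1.51 ± 0.27 (SE, adjusted p = 3.49e-05). The day 6 arrays 1 and 3 were the highest. NDUFA3, a small accessory subunit of the membrane arm, rose by 1.27 ± 0.42 (SE, adjusted p = 0.0112), a call that ended without day 6 replicate 3 (adjusted p = 0.0606). NDUFB10 and NDUFB5, further accessory subunits of that arm, fell, with -0.80 ± 0.16 (SE, adjusted p = 0.000112) and -0.69 ± 0.12 (SE, adjusted p = 3.29e-05).

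Complex III and complex IV had calls in both directions as well, but the 2 rises of complex III were weak. One was UQCR10, whose probes disagree (below). The other was UQCRB, at 0.85 ± 0.33 (SE, adjusted p = 0.0309), one of the genes with a wide spread. The call of UQCRB ended without any 1 of 4 arrays, with adjusted p up to 0.18. CYC1, the cytochrome c1 subunit, was 12.96, 12.92, 12.63 and 12.90 in undifferentiated cells and 12.08, 12.02, 12.10 and 11.87 at day 6. Every day 6 array was lower, a change of -0.84 ± 0.12 (SE, adjusted p = 1.2e-06). COX6B1, a small subunit of complex IV on the intermembrane side, was 9.59, 10.41, 10.75 and 10.53 before and 11.62, 11.19, 12.77 and 11.71 after. It was higher on every day 6 array, by 1.499 ± 0.35 (SE, adjusted p = 0.000749), though replicate 3 was more than 1 log2 unit above the rest. COX4I1, the ubiquitous form of a regulatory subunit, fell by 0.44 ± 0.11 (SE, adjusted p = 0.00171). In ATP synthase 4 members rose and 3 fell, the largest fall being that of ATP5ME, a small membrane subunit, at -0.62 ± 0.14 (SE, adjusted p = 0.000531).

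The rises rested more on single arrays than the falls. Without day 6 replicate 3 the count of members that rose was 7 instead of 15, and without undifferentiated replicate 1 it was 9. Of 15 and 17 calls, the groups did not overlap for 9 and 16. Overlap was not counted over all called features, so such counts, here and below, do not set the members apart. With arrays shifted to a common median instead of quantile normalization, 19 rose and 11 fell (27.9% and 16.2%, beside 26.5% and 31.1% of all features). Among keratinocyte markers over the same arrays, KRT1, KRT10, IVL and FLG rose and KRT14 fell, 5 of 6 measured (IVL was detected on none and KRT1 and FLG on 1 of the 4 undifferentiated arrays), and their summed normalized intensity went from 28768 to 32745 in undifferentiated cells to 71133 to 145543 at day 6. PMEL and COL1A1, single measured markers of melanocytes and fibroblasts, rose as well. PMEL was detected on no undifferentiated array and was at least 2.97-fold higher at day 6, and COL1A1 rose by 2.17 on the log2 scale. Of 4 immune markers 3 changed: CD14 and HLA-DRA fell, and CD207, detected on no undifferentiated array, was at least 8.46-fold higher. The part of these shifts in the result was not tested, and in bulk RNA fewer cells of one state and less RNA per cell cannot be told apart.

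**Figure D3:**
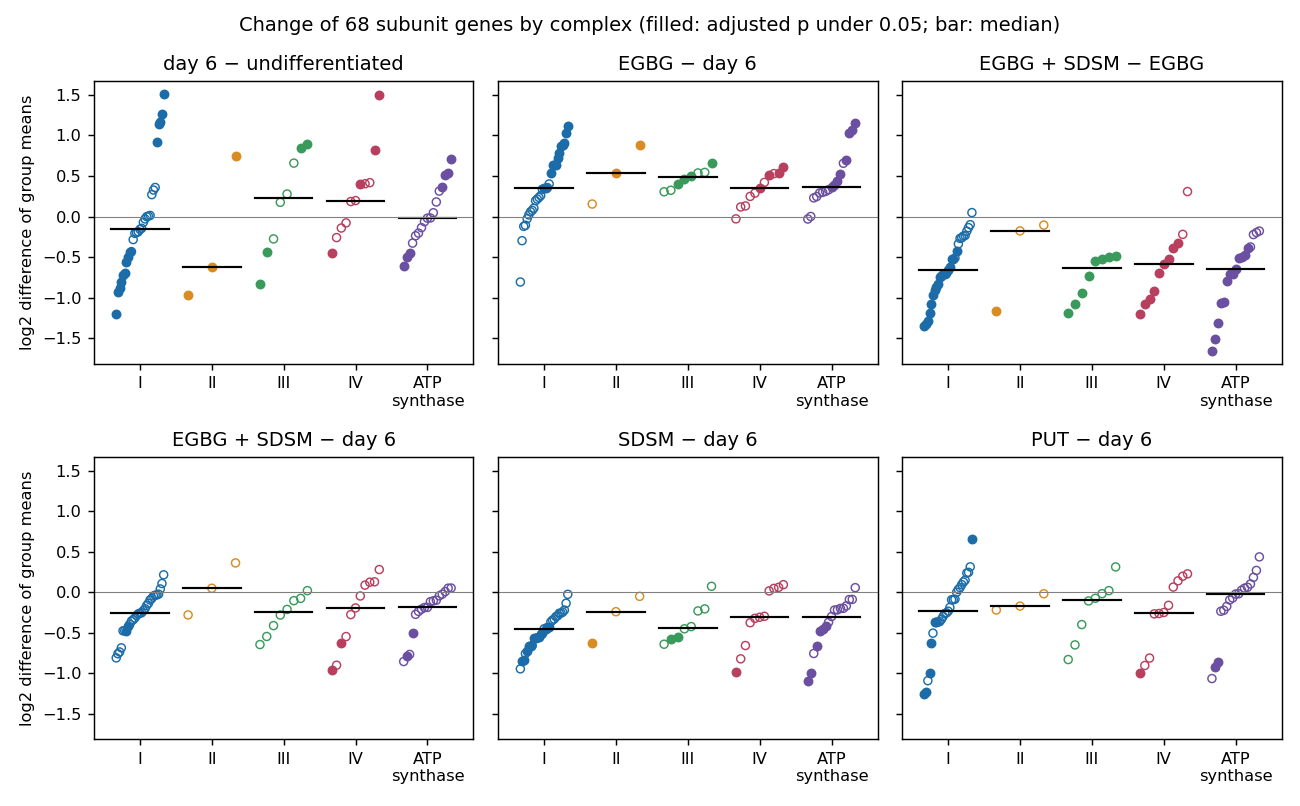
Log2 difference of group means (vertical axis) for each of the 68 subunit genes by complex, in 6 comparisons. Filled points passed adjusted p under 0.05 and bars are medians: 31 filled points lie above 0 in EGBG against day 6 and 50 lie below 0 in EGBG with SDSM against EGBG.

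EGBG raised subunit genes of every complex. Against day 6 without compound, 31 of 68 members rose (45.6%) and none fell, where 21.3% of all features rose and 17.7% fell. The median change was 0.36 on the log2 scale, beside 0.07 over all features, and 61 members had a positive value. The 31 were 13 of 29 in complex I, 2 of 3 in complex II, 4 of 8 in complex III, 4 of 11 in complex IV and 8 of 17 in ATP synthase. Their folds ran from 1.27 to 2.23, and for 23 of them no EGBG array overlapped a day 6 array, a count not made over all called features.

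ATP5MC1, one of the genes for the c subunit that forms the rotor ring of ATP synthase, rose most. It was 11.34, 10.52, 10.96 and 10.62 at day 6 and 11.77, 11.95, 12.13 and 12.22 with EGBG. The lowest EGBG array was above the highest day 6 array, and the change was 1.15 ± 0.17 (SE, adjusted p = 7.93e-06), 2.23-fold. ATP5MK and ATP5MJ, small subunits of the membrane part, rose by 1.07 ± 0.20 (SE, adjusted p = 0.00015) and 1.03 ± 0.16 (SE, adjusted p = 1.57e-05). ATP5IF1, the protein that blocks ATP synthase from running in reverse, rose as well, by 0.70 ± 0.18 (SE, adjusted p = 0.00293). Its day 6 values were 11.89, 12.65, 12.31 and 12.57 and its EGBG values 12.79, 13.39, 12.81 and 13.24. The groups did not overlap, and EGBG replicates 2 and 4 were the highest.

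In complex I, NDUFS7, the core subunit that holds the last iron-sulfur cluster before coenzyme Q, was 11.13, 10.71, 10.83 and 10.60 at day 6 and 11.57, 11.68, 11.85 and 11.81 with EGBG. All EGBG arrays were higher, by 0.91 ± 0.12 (SE, adjusted p = 2.26e-06). NDUFA6, an accessory subunit of the LYR family, rose by 1.12 ± 0.20 (SE, adjusted p = 0.000105). NDUFB9, of the same family, rose by 1.03 ± 0.19 (SE, adjusted p = 0.000111), from 9.62, 10.64, 11.03 and 10.38 to 11.25, 11.35, 11.72 and 11.48. Every NDUFB9 array with EGBG was above every day 6 array, of which replicate 1 was lowest. The same day 6 array was lowest for NDUFB10, which rose by 0.63 ± 0.16 (SE, adjusted p = 0.00251), and by 0.40 without that array. The complex I member furthest below 0 was NDUFA11, at -0.81 ± 0.46 (SE, adjusted p = 0.167), one of the 11 genes with a wide spread. With the replicate number as a block, which pairs these arrays, NDUFA11 fell by the same amount (adjusted p = 0.0455).

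In complex II, SDHD was 11.12, 10.76, 11.08 and 10.71 at day 6 and 11.67, 11.72, 11.84 and 11.999 with EGBG. The EGBG arrays were all higher, with a change of 0.89 ± 0.12 (SE, adjusted p = 1.71e-06). SDHA also rose, by 0.54 ± 0.20 (SE, adjusted p = 0.0326), with overlapping groups, while SDHC was at 0.15 ± 0.14 (SE, adjusted p = 0.417). The second SDHA probe, detected on 21 arrays, was at 0.154 (adjusted p = 0.723), so the rise of SDHA rests on its brighter probe. In complex III, CYC1 rose from 12.08, 12.02, 12.10 and 11.87 to 12.48, 12.71, 12.69 and 12.83. No array overlapped, and the change was 0.66 ± 0.12 (SE, adjusted p = 7.48e-05). UQCRC2, a core protein of complex III, rose by 0.47 ± 0.14 (SE, adjusted p = 0.00902). In complex IV, COX6C, a small membrane subunit, rose most, from 12.65, 13.32, 13.41 and 13.13 to 13.64, 13.79, 13.71 and 13.81. All 4 EGBG arrays were above the day 6 arrays, by 0.61 ± 0.14 (SE, adjusted p = 0.001), and day 6 replicate 1 was the lowest. COX7B, another small membrane subunit, rose by 0.51 ± 0.14 (SE, adjusted p = 0.00538).

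The smaller calls rested on single arrays. Those of COX7A2, NDUFA7, NDUFA8, SDHA, UQCR10 and COX4I1 each ended when any 1 of 2 to 6 arrays was left out, with adjusted p up to 0.137, EGBG replicate 4 being among those arrays for all 6 except UQCR10, for which they were EGBG 1 and 3 and day 6 replicates 2 and 4. Without replicate 3 in every group 28 members were called, 26 of them the same genes. Over the same arrays 2 of 6 keratinocyte markers, IVL (-3.16, detected on 3 of 4 EGBG arrays) and FLG (-2.93), both late differentiation genes, fell, and the summed level of the 6 was 74531 to 89424, against 71133 to 145543 at day 6. HLA-DRA rose and CD207 fell among 4 immune markers, and PMEL and COL1A1 did not pass. The part of these in the result was not tested.

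**Figure D4:**
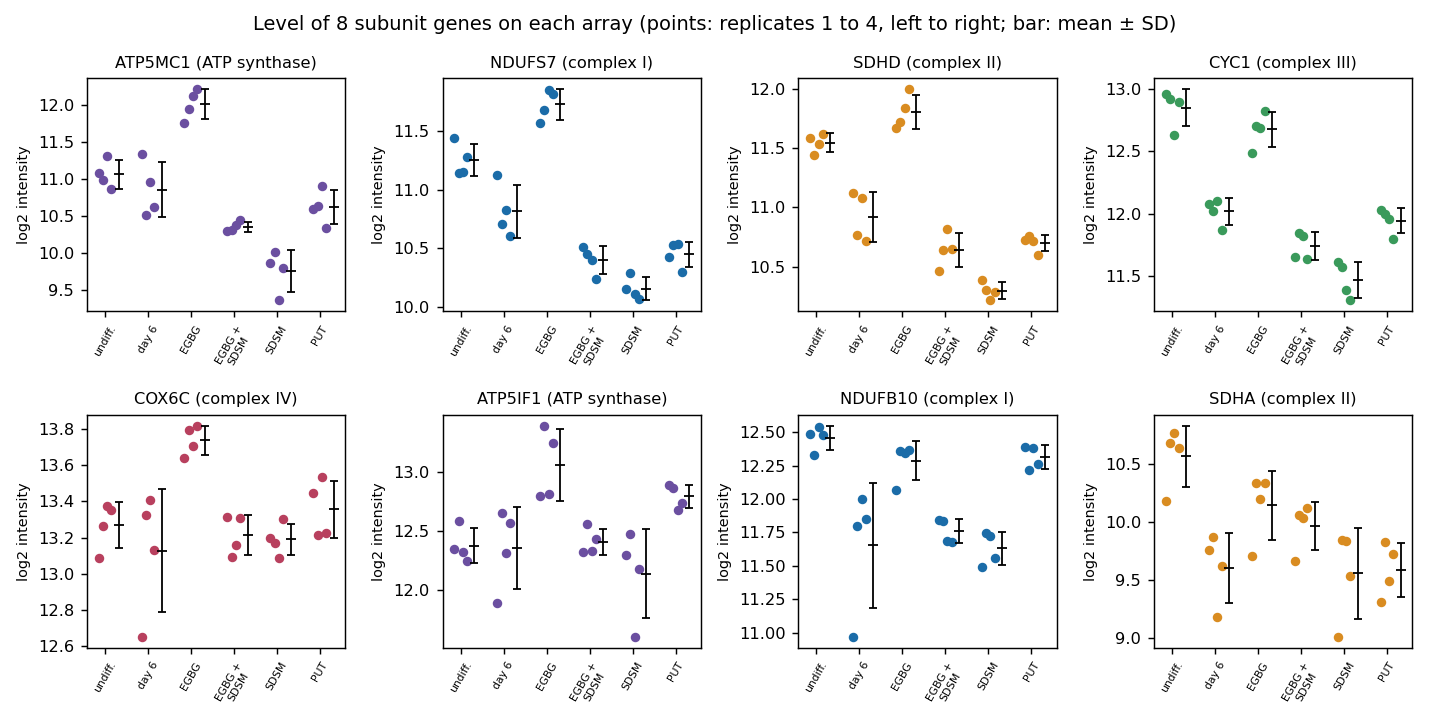
Log2 intensity of 8 subunit genes on each array (points, replicates 1 to 4 from left to right; bars mark the mean ± SD of 4), with a separate vertical axis for each gene. ATP5MC1, NDUFS7 and SDHD are highest with EGBG and lowest with SDSM, while NDUFB10 and ATP5IF1 are higher with PUT than with SDSM.

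SDSM given together with EGBG lowered these genes against EGBG alone. Of the 68 members, 50 fell (73.5%) and none rose, where 29% of all features fell and 22.2% rose. The median change was -0.63, beside -0.07 over all features, and 66 members had a negative value. The calls took in all 8 complex III members counted, 9 of 11 in complex IV, 13 of 17 in ATP synthase, 19 of 29 in complex I and 1 of 3 in complex II. For 41 of the 50 the groups did not overlap, a count not made over all called features. This comparison shares the EGBG arrays with EGBG against day 6, so a high EGBG array moves both.

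ATP5MC1 again changed most, from 11.77, 11.95, 12.13 and 12.22 with EGBG to 10.30, 10.31, 10.39 and 10.44 with both. The values with both compounds lay close together and more than 1 log2 unit below the lowest EGBG array, a change of -1.66 ± 0.17 (SE, adjusted p = 1.84e-08). NDUFS7 was 10.51, 10.46, 10.40 and 10.24 with both, below all EGBG arrays, by -1.32 ± 0.12 (SE, adjusted p = 3.08e-09). NDUFA1, a small membrane subunit of complex I, was 12.47, 12.44, 12.69 and 12.45 with EGBG and 11.11, 11.01, 11.48 and 11.06 with both. All 4 were lower, with replicate 3 highest in each group, by -1.35 ± 0.18 (SE, adjusted p = 7.43e-07). NDUFA6 fell by 1.28 ± 0.20 (SE, adjusted p = 1.16e-05) and ATP5MK by 1.31 ± 0.20 (SE, adjusted p = 7.4e-06). SDHD was 10.46, 10.64, 10.81 and 10.64 with both, without overlap, a change of -1.17 ± 0.12 (SE, adjusted p = 1.25e-08). The other complex II genes did not pass, with -0.18 (95% interval -0.58 to 0.23) for SDHA and -0.11 (95% interval -0.40 to 0.19) for SDHC by their brightest probes. The second SDHC probe fell by 0.40 (adjusted p = 0.029), so the missing call of SDHC holds for the brightest probe.

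CYC1 was 11.65, 11.85, 11.82 and 11.63 with both compounds, below every EGBG array, and fell by 0.94 ± 0.12 (SE, adjusted p = 3.34e-07). UQCRH, the hinge protein of complex III, and UQCRB fell by 1.19 ± 0.31 (SE, adjusted p = 0.00284) and 1.08 ± 0.33 (SE, adjusted p = 0.0084). In complex IV the largest changes were in COX8A, COX6B1 and COX5B, at -1.20 ± 0.32 (SE, adjusted p = 0.00296), -1.08 ± 0.35 (SE, adjusted p = 0.0132) and -1.02 ± 0.32 (SE, adjusted p = 0.0111). All 3 are among the genes with a wide spread. COX8A was 12.74, 11.71, 12.88 and 11.75 with EGBG and 10.85, 10.93, 11.67 and 10.82 with both, and the lowest EGBG array was only just above the highest of the other group. ATP5F1E, the epsilon subunit of the catalytic head, fell by 1.51 ± 0.44 (SE, adjusted p = 0.00635). COX5A was the member furthest above 0, at 0.31 ± 0.14 (SE, adjusted p = 0.0775). The call of COX5B ended without EGBG replicate 1 (adjusted p = 0.0525) and that of COX6B1 without EGBG replicate 3 (adjusted p = 0.0546). Without replicate 3 in every group 47 members were called, all of them among the 50.

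Over the same arrays IVL and FLG rose, by 3.87 and 3.39, and KRT5, KRT14 and KRT10 fell, 5 of the 6 keratinocyte markers, with a summed level of 75892 to 97300. PMEL and COL1A1 rose and CD14, detected on 1 of the 4 arrays with both compounds, fell. The part of these in the result was not tested.

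Against day 6 without compound, EGBG with SDSM left 6 members lower (8.82%) and none higher, where 7.7% of all features fell and 8.72% rose, a share near that background. With the replicate number as a block, 15 members (22.1%) and 10.5% of all features fell. The median was -0.21, beside 0.00 over all features. The 6 were COX8A (-0.96), ATP5F1D (-0.79), COX7A2L (-0.62), ATP5MC1 (-0.50), NDUFB5 (-0.47) and NDUFS7 (-0.42), with adjusted p from 0.00749 to 0.0473. A second ATP5F1D probe was at -0.21 (adjusted p = 0.496). COX7A2L, which is known for joining complexes III and IV into supercomplexes, was 11.96, 11.92, 12.41 and 12.12 at day 6 and 11.07, 11.46, 11.71 and 11.67 with both compounds. The groups did not overlap. The count was 10 without replicate 3 of that group or without day 6 replicate 4, and 3 without its replicate 4. The calls of ATP5MC1, COX8A and NDUFS7 ended without any 1 of 6, 5 and 2 arrays (day 6 replicate 1 and EGBG with SDSM replicate 4 among them in each case), with adjusted p up to 0.206. Among the markers, KRT5 (-1.19) and KRT14 (-0.74) were lower and IVL (0.70) and PMEL (0.60) higher, and their part in the result was not tested.

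The interaction asked whether EGBG acted differently when SDSM was present, as the EGBG effect with SDSM minus the EGBG effect without it. Over all features it passed below 0 for 8.76% and above 0 for 9.72%. Of the 68 members, 8 passed (11.8%), each below 0, a share below 0 near that of all features. They were ATP5MK at -1.22 ± 0.29 (SE, adjusted p = 0.00349), NDUFA6 at -0.83 ± 0.29 (SE, adjusted p = 0.0468), NDUFB9 at -0.82 ± 0.27 (SE, adjusted p = 0.0338), ATP5MJ at -0.68 ± 0.23 (SE, adjusted p = 0.038), NDUFS7 at -0.66 ± 0.17 (SE, adjusted p = 0.00849), COX6C at -0.58 ± 0.20 (SE, adjusted p = 0.0385), SDHD at -0.54 ± 0.17 (SE, adjusted p = 0.0238) and NDUFS3, a core subunit of complex I, at -0.64. For NDUFS7 the EGBG effect was 0.91 without SDSM, where the mean level with SDSM was 10.16 and with both compounds 10.40. The count of 8 fell to between 2 and 5 without any 1 of 10 of the 16 arrays and was 2 without EGBG replicate 4. With the other deposited signals 1 member was below and 1 above 0. Among the markers, IVL (2.83) and FLG (2.80) were above 0 and CD14 (-1.65) below, and their part was not tested.

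SDSM by itself lowered subunit genes against day 6, most of them in complex I. Of the 68 members, 23 fell (33.8%) and none rose, where 13% of all features fell and 12.3% rose. The median change was -0.39, beside -0.02 over all features. In complex I all 29 members had a negative value and 13 passed, 4 of the 5 core subunits among them. ATP synthase had 6 calls among 17, complex III 2 among 8, complex II 1 among 3 and complex IV 1 among 11, for complex IV a smaller share than over all features. The median of complex IV was still -0.31, beside -0.30 for ATP synthase, with 7 of its members below 0 and 4 above. With the replicate number as a block, COX5B, COX6B1 and COX7A2L were called lower too. For 15 of the 23 the groups did not overlap, a count not made over all called features, and folds ran from 1.33 to 2.14.

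ATP5MC1 was 9.87, 10.02, 9.36 and 9.80 with SDSM and 11.34, 10.52, 10.96 and 10.62 at day 6. SDSM arrays were all lower, by -1.10 ± 0.17 (SE, adjusted p = 4.95e-05). NDUFB5 was 11.51, 11.60, 11.71 and 11.48 with SDSM and 12.36, 12.43, 12.56 and 12.32 at day 6. The groups were more than 0.5 apart, with a change of -0.84 ± 0.12 (SE, adjusted p = 2.55e-05). NDUFA7, an accessory subunit, and NDUFA8, a subunit of the intermembrane side, fell by 0.73 ± 0.14 (SE, adjusted p = 0.000343) and 0.56 ± 0.12 (SE, adjusted p = 0.00157). SDHD fell from the day 6 values above to 10.39, 10.30, 10.21 and 10.28. It was lower on every SDSM array, by -0.62 ± 0.12 (SE, adjusted p = 0.000371). CYC1 was 11.61, 11.57, 11.38 and 11.30 with SDSM, below every day 6 array, and changed by -0.55 ± 0.12 (SE, adjusted p = 0.0011).

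UQCRQ, a small subunit of complex III, and COX8A, the only complex IV call of the main fit, fell by 0.57 ± 0.17 (SE, adjusted p = 0.012) and 0.99 ± 0.32 (SE, adjusted p = 0.0247). NDUFB10, ATP5IF1 and SDHA did not pass, with -0.03 (95% interval -0.35 to 0.30), -0.22 (95% interval -0.59 to 0.15) and -0.05 (95% interval -0.46 to 0.36). The calls of UQCRQ, COX8A, ATP5MC2 and NDUFA13 ended without day 6 replicate 3, among other single arrays, with adjusted p up to 0.109, and the count was 15 without SDSM replicate 1 or without day 6 replicate 3. It was 23 again without replicate 3 in every group, 19 of them the same genes. With arrays shifted to a common median, which moved the median of all features to 0.13, it was 8 (11.8%, beside 8.06% of all features). A second ATP5F1D probe did not show that gene's fall (-0.66), at -0.19 (adjusted p = 0.501). Over the same arrays KRT5 (-1.51) and KRT14 (-0.81) fell and IVL (1.04) rose, 3 of 6 keratinocyte markers, with a summed level of 69447 to 100101. PMEL rose by 0.78, CD68 fell by 0.51, the only one of 4 immune markers called, and COL1A1 did not pass. The part of these in the result was not tested.

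PUT against day 6 changed fewer members. NDUFB10 rose (1.47%, where 9.58% of all features rose) and 9 fell (13.2%, where 7% fell), and the median was -0.13, beside 0.03 over all features. For 3 of the 9 falls the groups did not overlap, a count not made over all called features. NDUFB10 was 10.97, 11.80, 12.002 and 11.85 at day 6 and 12.39, 12.22, 12.38 and 12.26 with PUT. All PUT arrays were higher, by 0.66 ± 0.16 (SE, adjusted p = 0.00616), and by 0.43 without the low day 6 replicate 1. The largest called falls were in NDUFA3, NDUFB7, COX5B, NDUFA13 and ATP5MC2, all genes with a wide spread, from -1.25 to -0.92, and in ATP5F1D, the delta subunit of the catalytic head, at -0.86 ± 0.20 (SE, adjusted p = 0.00553). A second ATP5F1D probe was at -0.12 (adjusted p = 0.723). NDUFA3 was 10.85, 9.67, 11.48 and 10.05 at day 6 and 9.19, 9.06, 9.79 and 9.02 with PUT. The groups overlapped, replicate 3 with PUT being above day 6 replicate 2. The calls of these 5 genes each ended without day 6 replicate 1, with adjusted p up to 0.158. The count of falls was 2 without day 6 replicate 1, 3 without day 6 replicate 3 or without PUT replicate 1, 2 or 4, and 15 without day 6 replicate 2. Without replicate 3 in every group 10 members were called, 8 of them the same. None of the 6 keratinocyte markers passed, and their summed level was 82801 to 103896. CD14 rose by 1.40, alone among 4 immune markers, and PMEL by 0.69, while COL1A1 did not pass. The part of these in the result was not tested.

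Putrescine is a diamine, and spermidine and spermine are built from it by adding 1 or 2 aminopropyl groups. The single comparison that sets these related compounds side by side, SDSM against PUT, used arrays of the same day, and both labels give 1 mM, added on day 3. Of the 68 members, 14 were lower with SDSM (20.6%) and none higher, where 9.93% of all features were lower and 7.1% higher. The median difference was -0.18, beside -0.04 over all features. For all 14 the groups did not overlap, a count not made over all called features. They were 8 of 29 in complex I, 4 of 17 in ATP synthase, 1 of 3 in complex II, 1 of 8 in complex III and 0 of 11 in complex IV.

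ATP5MC1 was 9.87, 10.02, 9.36 and 9.80 with SDSM and 10.61, 10.64, 10.91 and 10.35 with PUT. The highest SDSM array was below the lowest PUT array, a difference of -0.86 ± 0.17 (SE, adjusted p = 0.00119). NDUFB10 was 11.49, 11.75, 11.72 and 11.56 with SDSM, a difference from PUT of -0.68 ± 0.16 (SE, adjusted p = 0.00401). ATP5IF1 was 12.30, 12.47, 11.60 and 12.18 with SDSM and 12.89, 12.86, 12.68 and 12.73 with PUT. The PUT arrays lay close together and above all SDSM arrays, of which replicate 3 was lowest, and the difference was -0.66 ± 0.18 (SE, adjusted p = 0.0134). A second ATP5IF1 probe, detected on 14 arrays, showed a difference of 0.01 (adjusted p = 0.99). NDUFA8 and NDUFB6, an accessory subunit of the membrane arm, differed by -0.62 ± 0.12 (SE, adjusted p = 0.00128) and -0.61 ± 0.19 (SE, adjusted p = 0.0262). SDHD and CYC1 differed by -0.40 ± 0.12 (SE, adjusted p = 0.0198) and -0.48 ± 0.12 (SE, adjusted p = 0.00614). The brightest SDHC probe did not pass (-0.07), while its second probe was lower with SDSM by -0.55 (adjusted p = 0.013).

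In complex IV no call was made by limma at adjusted p under 0.05, and the intervals show what sizes remain possible: COX4I1 was at -0.09 (95% interval -0.33 to 0.14), COX5A at 0.03 (95% interval -0.27 to 0.33) and COX8A at -0.09 (95% interval -0.75 to 0.58). Among the others, SDHA was at -0.03 (95% interval -0.44 to 0.38), NDUFV1, the core subunit that binds NADH, at -0.00 (95% interval -0.39 to 0.38) and ATP5F1B, the catalytic beta subunit, at -0.05 (95% interval -0.27 to 0.18). The count rested in part on replicate 3: without SDSM replicate 3 it was 8, with ATP5IF1 (adjusted p = 0.0685), NDUFB6 and SDHD among the calls that ended. Without replicate 3 in every group 4 of 68 members and 596 of 12149 features were lower with SDSM, so the members were then near the share of all features. Calls of NDUFB6 and SDHD also ended without PUT replicates 1 or 3 and PUT replicate 2, respectively. Among the markers, KRT14 (-0.65) and CD14 (-0.99) were lower with SDSM and IVL (0.78) higher, and their part in the result was not tested.

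**Figure D5:**
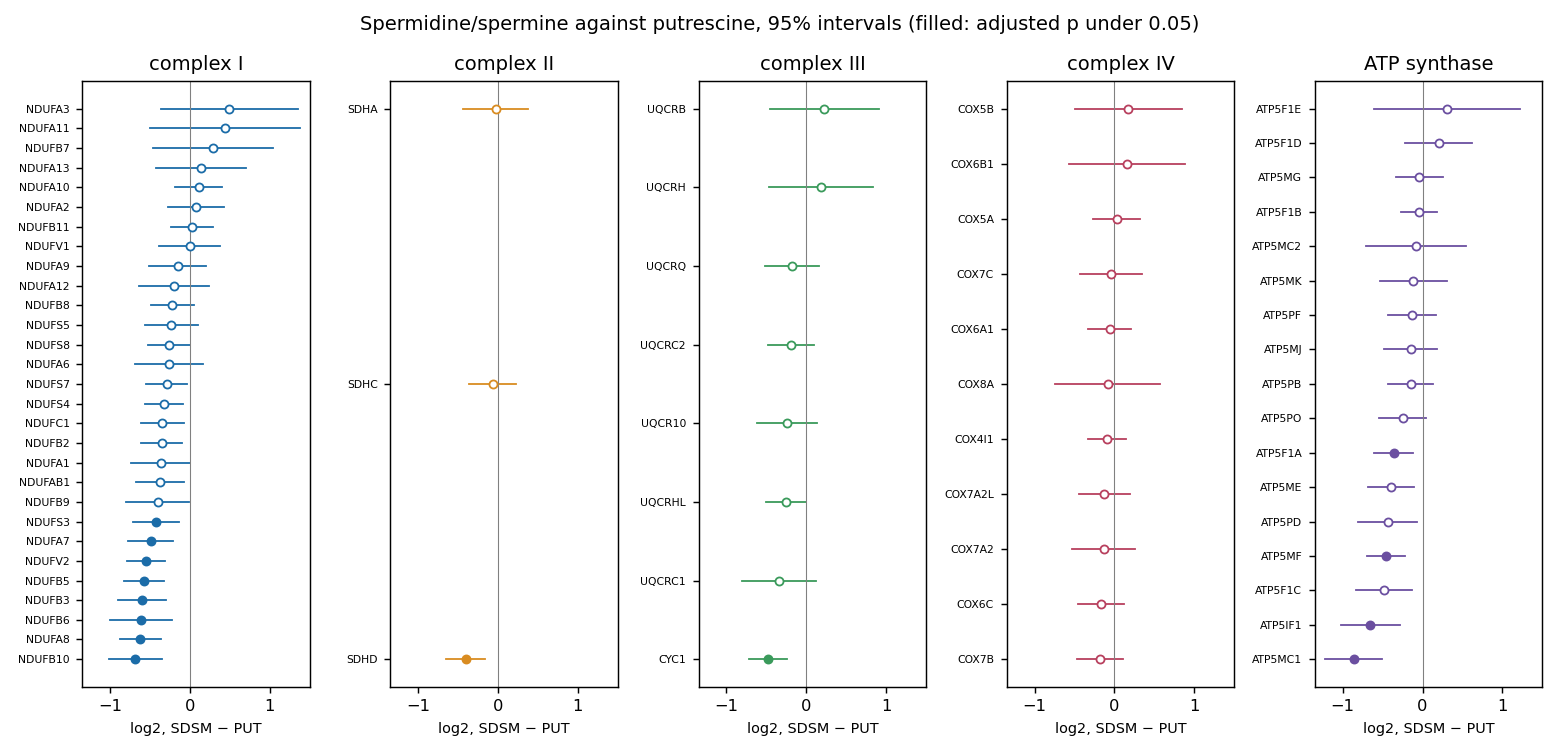
Difference between SDSM and PUT for each subunit gene (log2, horizontal axis) with its 95% interval, by complex; filled points passed adjusted p under 0.05. The 14 filled points all lie below 0, and complex IV has none.

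Some members need their probes spelled out. UQCR10, a small subunit of complex III, was read by 3 probes, and the brightest rose at day 6, by 0.89 ± 0.18 (SE, adjusted p = 0.00017), while a second probe detected on all 24 arrays fell by 0.88 (adjusted p = 4.22e-05). No direction can be given for UQCR10 in that comparison. With EGBG the brightest probe rose by 0.50 and the second was at 0.31 (adjusted p = 0.127). Among the 16 members with several probes past the filter, this was the only call opposed by a call of another probe in any comparison. UQCRH and its near copy UQCRHL share most of their sequence, so their probes may read both, and their values are uncertain. At day 6 UQCRH was at 0.66 ± 0.31 (SE, adjusted p = 0.0776) by its brightest probe and UQCRHL at -0.43 ± 0.12 (SE, adjusted p = 0.00373), of opposite sign. A second UQCRH probe, detected on all 24 arrays, was at -0.28 (adjusted p = 0.115), the sign of UQCRHL. With EGBG that second probe rose by 0.65 (adjusted p = 0.00114), while the brightest, at 0.545, did not pass. UQCR11, a small subunit of complex III, was detected on 4 undifferentiated arrays, on 1 PUT array and on none of the other groups. It was at least 1.04-fold higher in undifferentiated cells than at day 6, a bound set by the dimmest detected probes.

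The tissue-restricted isoforms of complex IV were not seen. COX4I2, COX6A2, COX6B2, COX7A1, COX7B2 and COX8C, known from muscle, lung or testis, were detected on 0 of 24 arrays, while their ubiquitous partners COX4I1, COX6A1, COX6B1, COX7A2, COX7B and COX8A were detected on all 24. A probe that is not detected does not show that the gene is silent. The other untested members were 7 of complex I (NDUFA5, NDUFB1, NDUFB4, NDUFC2, NDUFS1, NDUFS6 and NDUFV3), detected on 0 to 3 arrays, and ATP5MC3, a further c subunit gene, detected on 3. Of the c subunit genes tested, which encode the same mature protein, ATP5MC1 changed with EGBG (above) and ATP5MC2 was at 0.30 ± 0.30 (SE, adjusted p = 0.466). In EGBG with SDSM against EGBG, ATP5MC2 fell by 1.07 ± 0.30 (SE, adjusted p = 0.00505).

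Genes that build or feed the chain were taken from lists of known roles. Over all features 21.3% rose and 17.7% fell with EGBG, 22.2% rose and 29% fell in EGBG with SDSM against EGBG, 12.3% rose and 13% fell with SDSM alone, and 23.8% rose and 33.8% fell at day 6, and the counts below stand beside these shares. With EGBG, 22 of 44 tested assembly factors rose and 2 fell. COX14, needed for complex IV assembly, rose by 1.53 (adjusted p = 2e-07), NDUFAF4, a complex I assembly factor, by 1.31 (adjusted p = 4.63e-05) and BCS1L, which inserts the iron-sulfur protein of complex III and was detected on 3 of 4 day 6 arrays, by 1.22 (adjusted p = 5.23e-06). ACAD9, another complex I assembly factor, was the largest change and fell, by 1.83 (adjusted p = 3.22e-10). In EGBG with SDSM against EGBG, 29 of the 44 fell and 5 rose, ACAD9 rising by 2.06 (adjusted p = 1.92e-11) and COX14 falling by 1.95 (adjusted p = 1.76e-09). With SDSM alone 19 fell and none rose, and at day 6 7 rose, a smaller share than over all features, and 20 fell.

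Of 10 coenzyme Q genes, 6 rose and 1 fell with EGBG, where 21.3% of all features rose and 17.7% fell. COQ8A, an atypical kinase-like protein of that pathway, was detected on all 4 EGBG arrays and on no array of the other 5 groups. It thus passed the detection filter only through the group where it was high, so its place among the 6 rises is no independent support. By the bound, COQ8A was at least 6.48-fold higher than at day 6 and at least 5.72-fold higher than with both compounds. COQ9, a lipid-binding protein of the pathway, rose by 0.97 (adjusted p = 1.39e-06), and COQ2, which joins the ring to its tail, fell by 1.52 (adjusted p = 4.39e-07). In EGBG with SDSM against EGBG, COQ9 was at -1.57 (adjusted p = 2.57e-10) and COQ2 at 1.51 (adjusted p = 2.27e-07).

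Of 6 tested genes for the cytochrome c heme lyase (HCCS), carriers of the inner membrane and channels of the outer membrane (VDAC1 and VDAC3), 3 rose and none fell with EGBG, where 21.3% of all features rose. All 3 were carriers: the ADP/ATP carriers SLC25A4, by 1.36 (adjusted p = 3.37e-08), and SLC25A5, by 0.52 (adjusted p = 0.000882), and the phosphate carrier SLC25A3, by 0.64 (adjusted p = 0.000421). Of 14 genes of the citric acid cycle and pyruvate dehydrogenase, 5 rose and none fell with EGBG, led by SUCLG2, a succinyl-CoA ligase subunit, at 0.96 (adjusted p = 5.63e-06). PDHA1 and PDHX, parts of pyruvate dehydrogenase, followed at 0.76 (adjusted p = 3.33e-05) and 0.73 (adjusted p = 7.88e-05). In EGBG with SDSM against EGBG 10 of the 14 fell and 1 rose, where 29% of all features fell. Of 14 genes of mitochondrial biogenesis and transcription, 6 rose and 1 fell with EGBG: TFB2M, a mitochondrial transcription factor, rose by 1.51 (adjusted p = 4.61e-07) and PPRC1, a coactivator of the PGC-1 family, by 1.24 (adjusted p = 1.28e-05). MTERF1, a mitochondrial termination factor, passed as well (adjusted p = 8.79e-06) but was detected on 1 of 4 day 6 arrays, with mean log2 intensities of 7.57 with EGBG and 6.48 at day 6. With SDSM alone none of these 14 rose and 1 fell, beside 12.3% and 13% of all features.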

How the data were processed

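Total RNA of 24 N/TERT1 samples was hybridised to Illumina bead arrays of 47304 probes, and groups were taken from the labels. The deposited series matrix holds linear intensity values, which go below 0 and differ in distribution between arrays, so background had been subtracted and arrays had not been scaled to each other. A further deposited table gives, per the file headers, a signal and a detection p-value per probe. Its signals appear rescaled with a floor of 40, so only its p-values were used, and its signals served as an alternative. The design had taken that table's detection p-values with the matrix intensities. GenomeStudio is named in the submitters' processing notes, and its version is not given in the sources used here.

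In R 4.3.3, the neqc step of limma (version 3.58.1) corrected the background, added 16, quantile-normalized and took log2. Probes with detection p under 0.01 on 4 or more arrays were kept (14304). The brightest probe stood for a gene, which left 12149 features. Symbols came from the platform annotation (30102 probes with 1 symbol, 8 with several, 17194 with none), and 0 changed against RefSeq names. All 24 arrays entered a fit by lmFit and eBayes with 6 groups, and 8 two-sided contrasts were adjusted by Benjamini-Hochberg over all features. Called means adjusted p under 0.05. Comparisons with day 6 share its 4 arrays. In a bound, the mean of the detected group is set against the higher of the lowest detected signal and the gene's own signal on each array.

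Members and lists were chosen with earlier results of these data known. Genes are given with values when they were among the 3 largest called changes of a complex in a comparison, or the 2 widest ranges, or tissue isoforms, ATP5IF1 or SDH genes; in other lists, up to 3 called genes. NDUFS3, NDUFB5, NDUFB10, NDUFA1, NDUFA8, NDUFA11 and COX5A were also followed in comparisons outside this rule, as were second probes, after their values were seen. Same-numbered arrays deviated together in every pair for EGBG against day 6 (r from 0.29 to 0.57) and SDSM against PUT (0.19 to 0.34). They correlated best with their own number in 3 of 4 pairs and 4 of 4 pairs, respectively. The labels do not define the number, so the main fit held no block and the block served as an alternative. In a simulation of EGBG against day 6 with 12149 genes, 24% of changes of 0.5 on the log2 scale, 78% of 1 and 100% of 2 were recovered, with 6 false calls. It changed few genes and drew each array independently. In the data 2590 features rose and 2146 fell in this comparison, and arrays deviated together, so these rates do not carry over to them. Alternatives were the background step, scaling, table, filter, probe choice, samples, block, array weights, single arrays left out and, added later, a trended robust eBayes fit and replicate 3 left out. Plots used matplotlib 3.10.9.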

Additional observations from a re-analysis of the deposited data

Results flagged for a closer look

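A sample was singled out where its gap to the nearest of its group exceeded Dixon's limit for 4 samples. This held in 23 of 270 groups of 4 (8.52%), and chance singles out about 1 in 20. On replicate 3 of EGBG with SDSM the log2 intensity was 9.66 for ATP5F1D, 11.51 for COX5B, 11.67 for COX8A and 12.17 for UQCRH, each above the other 3 arrays of the group. On SDSM replicate 3, ATP5F1E was 10.63, ATP5ME 12.88, COX5B 12.10, NDUFB6 9.74, NDUFB9 10.11 and UQCRB 9.83. On PUT replicate 3, ATP5MC2 was 11.24, COX8A 11.56, NDUFB7 9.07 and UQCRQ 12.83. NDUFA1 was 12.69 on EGBG replicate 3, and UQCRQ was 12.90 on undifferentiated replicate 3. On other arrays, ATP5MF was 11.83 on day 6 replicate 4, ATP5MJ 9.74 on undifferentiated replicate 2, COX4I1 13.98 on EGBG with SDSM replicate 4 and NDUFB10 12.07 on EGBG replicate 1. The centred median of complex I was 0.28 on day 6 replicate 3, that of complex III 0.15 on EGBG with SDSM replicate 3, and that of complex IV -0.41 on undifferentiated replicate 1. What sets replicate 3 apart was not tested.

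The EGBG effect differed between cells with and without SDSM, by the interaction term of limma at adjusted p under 0.05, for 8 members (11.8%), all below 0, where 8.76% of all features were below and 9.72% above. The share of members below 0 was near that of all features. The count was 2 without EGBG replicate 4, and with the other deposited signals 1 was below and 1 above 0. The differences on the log2 scale were -0.68 for ATP5MJ, -1.22 for ATP5MK, -0.58 for COX6C, -0.83 for NDUFA6, -0.82 for NDUFB9, -0.64 for NDUFS3, -0.66 for NDUFS7 and -0.54 for SDHD.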

How the results depend on the processing

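The median change of the members kept its sign under every alternative run, single arrays left out included, in EGBG against day 6 (0.21 to 0.49), EGBG with SDSM against EGBG (-0.69 to -0.44), EGBG with SDSM against day 6 (-0.28 to -0.06), SDSM (-0.44 to -0.24) and PUT (-0.21 to -0.06) against day 6, SDSM against PUT (-0.23 to -0.10) and the interaction (-0.36 to -0.10), but not in day 6 against undifferentiated (-0.15 to 0.28). Shifting arrays to a common median moved the median of all features to 0.12, 0.13 and 0.16 for EGBG with SDSM, SDSM and PUT against day 6, and the share of rises among all calls in these from 53.1%, 48.7% and 57.8% to 68.9%, 66.7% and 75.1%. Among all calls of EGBG against day 6 it went from 54.7% to 43.4% under cyclic loess and 36.8% with the other deposited table. In EGBG with SDSM against EGBG it went from 43.3% to 52.9%, 53.7% and 53.5% under cyclic loess, the median shift and the other table, in SDSM against PUT from 41.7% to 52.3% under cyclic loess, and in the interaction from 52.6% to 70.4% with the other table. The causes of the changes below were not tested. With the median shift, 11 members fell at day 6 (16.2%, beside 31.1% of all features). With EGBG and SDSM against day 6, 1 rose and 1 fell (1.47% each, beside 10.9% and 4.91%). SDSM had 8 falls (11.8%, beside 8.06%), PUT 5 (7.35%, beside 4.59%) and SDSM against PUT 6 (8.82%, beside 6.58%). These last 3 shares were nearer those of all features than in the main fit. Cyclic loess left 3 falls with EGBG and SDSM (4.41%, beside 6.72% of all features) and 4 with PUT against day 6 (5.88%, beside 6.44%). With the signals of the other deposited table, day 6 had 10 falls (14.7%, beside 24.2% of all features). With EGBG 17 rose and 1 fell (25% and 1.47%, beside 10.8% and 18.5%). In EGBG with SDSM against EGBG 1 rose and 26 fell (1.47% and 38.2%, beside 21.7% and 18.8%). PUT had 2 falls (2.94%, beside 4.77%) and SDSM against PUT 7 (beside 707 features). In the interaction 1 was above and 1 below 0, beside 1105 and 464 features. With no filter 9 rose at day 6, 4 fell with PUT and 4 were below 0 in the interaction, beside 2967, 591 and 877 of 37240 features. Array weights gave 9 rises at day 6, 3 falls with EGBG and SDSM and 5 with PUT against day 6, and 22 in SDSM against PUT. Beside these stood 2990, 780, 1000 and 1667 of 12149 features. With only the groups of a comparison in the fit, 1 member fell with EGBG and SDSM and 10 with SDSM against day 6, 0 rose with PUT and 3 were below 0 in the interaction. Beside these stood 379, 945, 846 and 767 of 12149 features. With the replicate number as a block, 38 members rose and 1 fell with EGBG, beside 2922 and 2363 of 12149 features. In EGBG with SDSM against EGBG 1 rose, beside 2842 features, and 15 fell with EGBG and SDSM against day 6 (22.1%, beside 10.5% of all features). With SDSM 32 fell, beside 1947 features. With PUT 2 rose and 18 fell, beside 1493 and 1248, and 17 fell in SDSM against PUT, beside 1475. The block ended none of the calls of any comparison. Over the pairs of all comparisons, 18 of 28 arrays correlated best with their own number. Without replicate 3 in every group, chosen after seeing the data, 4 of 68 members fell in SDSM against PUT, beside 596 of 12149 features. Leaving out 1 array gave 7 to 16 rises and 17 to 19 falls at day 6, 24 to 37 rises and 0 to 1 falls with EGBG, 0 to 1 rises and 44 to 50 falls in EGBG with SDSM against EGBG, 3 to 10 falls with EGBG and SDSM against day 6, 15 to 28 with SDSM, 2 to 15 with PUT, 8 to 14 in SDSM against PUT and 2 to 10 in the interaction. With the mean of its probes UQCR10 turned from a rise to -0.011 at day 6. For SDHA the mean of probes was -0.37 at day 6 (adjusted p = 0.142) and 0.35 with EGBG (adjusted p = 0.21). Beadchip as a block was not run, since the columns name none. The number of arrays limits precision, and signal over background limits the 14 untested members.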
